A study of Mus musculus with 8 samples.

Results

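The levels of 10 metallothionein and zinc transporter genes were compared in the olfactory bulb of 4 double mutant and 4 wild-type mouse libraries at postnatal day 30. The genes were taken by symbol from a table of 19583 entries. They are the metallothioneins Mt1, Mt2 and Mt3, the Slc30 genes Slc30a1, Slc30a3, Slc30a4 and Slc30a10, and the Slc39 genes Slc39a10, Slc39a12 and Slc39a14. All 10 were in the table, and all 10 passed the filter on low values. The double mutants carried hGFAP-Cre and were Sp8 Flox/Flox and Sp9 Flox/Flox (both alleles of each gene floxed), and the controls were wild-type littermates. Both groups had a mixed background of C57BL/6J, 129S6 and CD1. In hGFAP-Cre mice the human GFAP promoter drives Cre in radial glia during development and in astrocytes, so Cre activity is not limited to interneurons. As the labels name hGFAP-Cre and floxed alleles for the mutant group alone, effects of losing Sp8 and Sp9, of Cre and of floxed sequence cannot be told apart.

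Metallothioneins are small cysteine-rich proteins that bind zinc and copper in the cell. Mt1 and Mt2 are made in most tissues and are induced by metals, glucocorticoids and inflammatory signals, and in the brain they are chiefly astrocyte genes, while Mt3 is enriched in the brain. Proteins of the Slc30 family (ZnT) move zinc out of the cytosol, into vesicles or out of the cell, and those of the Slc39 family (ZIP) move it into the cytosol. Some members of both families carry manganese or iron as well. The olfactory bulb is among the zinc-rich regions of the brain, and part of its zinc lies in synaptic vesicles.

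The labels give each library a letter, A (replicates 1 and 2) or B (replicates 3 and 4) in the double mutants and C or D likewise in the wild type, and do not say what the letter stands for or whether libraries of a letter came from 1 animal. The p-values therefore measure only how these libraries spread, and some of that spread may be technical. Depth was estimated at 11888710 to 19040802 fragments per library. The targeted genes Sp8 and Sp9 stood at 23.8% and 27.9% of their wild-type means. The second principal component of all genes, with 7.9% of the variance, separated letter A from letter B. Of 11 astrocyte markers, all 11 rose, and of 10 markers of granule cells and other interneurons, all 10 fell. In bulk tissue, fewer cells of a type and less RNA per cell cannot be told apart.

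Of the 10 genes, 5 rose in the double mutant bulb, 3 fell and 2 did not pass the test. Those that rose were Mt1, Mt2, Mt3, the manganese exporter gene Slc30a10 and the zinc importer gene Slc39a12, and those that fell were Slc30a1, Slc30a4 and Slc39a10. Values are FPKM, fragments scaled for transcript length and library size. The test was limma on log2(FPKM + 0.5) over the 14349 genes whose mean over all libraries reached 0.5 FPKM, called at an adjusted p below 0.05. In the same test 65.3% of all genes passed, 28.8% higher and 36.5% lower, so 8 of 10 called stands little above that share. The 2 groups did not overlap for 8 of the 10 genes, against 59.1% of all genes. Of these 8, 4 were higher and 4 lower in the double mutants, against 25.7% and 33.4% of all genes. The median log2 fold change of the 10 genes was 0.04, against -0.04 over all genes tested, and the median size regardless of sign was 0.24 in both. Log2 differences below are those between group means of log2(FPKM + 0.5), positive where the double mutants were higher, and the value after ± beside them is the SE. Under upper quartile scaling of the columns, 5 of the 10 genes were higher and 2 lower, and the split of all calls turned from 4127 higher and 5237 lower to 4952 and 4028.

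**Figure D1:**
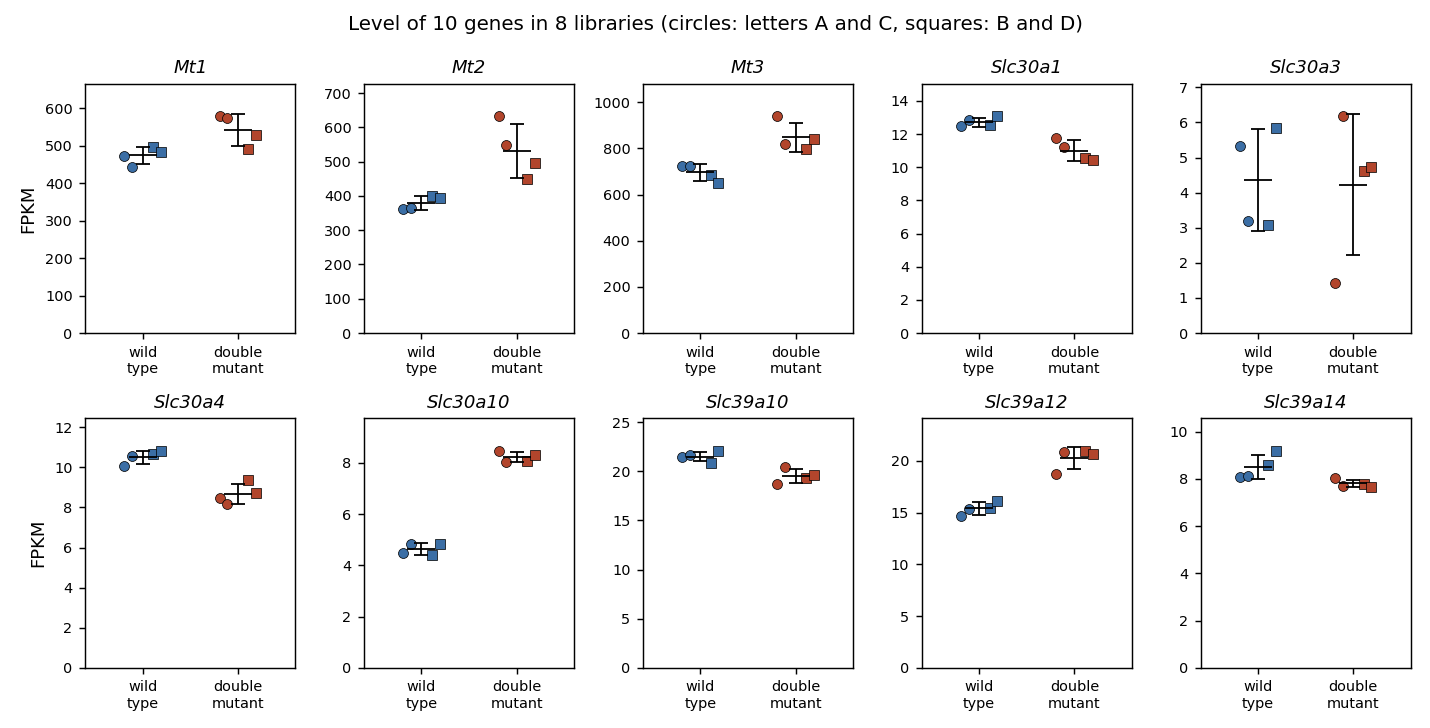
FPKM of each of the 10 genes (y axis, from 0) in the 4 wild-type libraries (blue) and the 4 double mutant libraries (red), with the mean and SD as black bars. Slc30a10 shows the widest gap between the groups relative to its spread, with 4.39 to 4.84 FPKM in the wild type and 8.05 to 8.47 FPKM in the double mutants. Slc30a3 overlaps between the groups, with 3.08 to 5.84 FPKM in the wild type and 1.43 to 6.18 FPKM in the double mutants.

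The metallothioneins were by far the most abundant of the 10 genes per length. Over the 8 libraries Mt3 averaged 773 FPKM, Mt1 508 FPKM and Mt2 456 FPKM. The transporters followed between 20.5 FPKM for Slc39a10 and 4.30 FPKM for Slc30a3. In the wild type each gene of the order Mt3, Mt1, Mt2, Slc39a10, Slc39a12, Slc30a1, Slc30a4, Slc39a14, Slc30a10 and Slc30a3 lay above the next in every library, except that Slc30a10 and Slc30a3 overlapped. In the double mutants Mt1 and Mt2 overlapped, as did Slc39a10 and Slc39a12, and every Slc30a10 value (8.05 to 8.47 FPKM) lay above every Slc39a14 value (7.68 to 8.04 FPKM).

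The metallothionein genes lie side by side on chromosome 8 (GRCm38, GENCODE M21, plus strand), Mt3 at 94152607 to 94154146, Mt2 at 94172664 to 94173568 and Mt1 at 94179082 to 94180327. Mt4 was not analysed here. Mt1, Mt2 and Mt3 were all called higher, though the groups overlapped for Mt1, and Slc30a10 had the largest change of the 10 genes. For these genes the bases from 250 to 11 before the RefSeq starts (GRCm38.p6) are shown, at chr8:94178839-94179078 for Mt1, chr8:94172368-94172607 for Mt2, chr8:94152357-94152596 for Mt3 and chr1:185454598-185454837 for Slc30a10, all on the plus strand and 5′ to 3′. Capitals mark letters that match, on either strand, TGCACNC or TGCGCNC (the core of the metal response element bound by the zinc sensor MTF1), GGGCGG (the GC box bound by Sp family factors) or TGACNNNGC (the core of the antioxidant response element).
Mt1: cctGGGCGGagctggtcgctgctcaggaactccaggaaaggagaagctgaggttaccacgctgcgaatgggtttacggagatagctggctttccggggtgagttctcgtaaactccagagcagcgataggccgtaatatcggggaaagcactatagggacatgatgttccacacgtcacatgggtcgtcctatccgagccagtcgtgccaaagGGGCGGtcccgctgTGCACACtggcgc
Mt2: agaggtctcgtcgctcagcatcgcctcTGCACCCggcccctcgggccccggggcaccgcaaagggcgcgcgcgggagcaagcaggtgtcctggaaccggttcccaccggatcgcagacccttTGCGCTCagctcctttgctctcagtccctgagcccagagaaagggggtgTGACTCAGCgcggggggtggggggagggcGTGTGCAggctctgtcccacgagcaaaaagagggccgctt
Mt3: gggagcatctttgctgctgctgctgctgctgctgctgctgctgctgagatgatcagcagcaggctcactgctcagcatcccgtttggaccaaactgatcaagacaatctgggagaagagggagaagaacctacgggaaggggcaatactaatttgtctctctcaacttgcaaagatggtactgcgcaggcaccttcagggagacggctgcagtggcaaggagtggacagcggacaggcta
Slc30a10: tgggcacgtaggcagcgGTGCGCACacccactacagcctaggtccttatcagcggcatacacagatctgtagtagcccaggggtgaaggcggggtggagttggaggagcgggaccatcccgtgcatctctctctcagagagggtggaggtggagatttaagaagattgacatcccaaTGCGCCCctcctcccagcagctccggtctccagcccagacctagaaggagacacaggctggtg
The Mt2 window held 2 matches of TGCACNC, 1 of TGCGCNC and 1 of TGACNNNGC. Mt1 held 1 match of TGCACNC and 2 of GGGCGG. Slc30a10 held 3 matches of TGCGCNC, of which 2 overlap on opposite strands, and the Mt3 window held none of these letters. Of the genes that fell, Slc30a1 held 1 match of TGCACNC, 5 of GGGCGG and 1 of TGACNNNGC, and Slc30a4 held 2 of TGCGCNC and 1 of GGGCGG. Slc39a10, which also fell, held none in its 2 windows, and Slc39a12, which rose, held none. Slc30a3, which did not pass, held 1 match of TGCGCNC and 1 of GGGCGG over its 2 windows. Of 32851 such windows of RefSeq starts, 20.4% held TGCACNC or TGCGCNC, 31.3% GGGCGG and 9.67% TGACNNNGC. Windows were found for 9 of the 10 genes. The GENCODE gene start of Slc39a10 lay 32924 and -39234 bases from its 2 RefSeq starts, where positive means downstream. For the second RefSeq start of Slc30a3 this distance was -14710 bases. The windows of Slc30a1 and Slc39a12 and the second windows of Slc30a3 and Slc39a10 overlapped an exon of the same gene. Further GENCODE transcripts start at 94179211 and 94179241 for Mt1, at 94172860 for Mt2 and at 94152746 for Mt3 (2 of its 3 transcripts), and the bases just before those starts are not in the windows. A match describes letters only.

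Mt2 stood at 632.78, 547.68, 448.94 and 495.29 FPKM (double mutants, replicates 1 to 4) against 360.93, 364.42, 400.78 and 393.89 FPKM (wild type, replicates 1 to 4). Every double mutant library lay above every wild-type library, with the highest values in the letter A libraries. The double mutant mean was 140% of wild type, 531 ± 79 against 380 ± 20 FPKM (SD, n = 4), and the log2 difference was 0.47 ± 0.09 (limma adjusted p = 0.000813). Without letter A it was 0.31 and still passed (limma adjusted p = 0.00185), and without letter B it was 0.63. Of the 50-base windows of the longest Mt2 transcript, 45.5% also occur in Gm45774, annotated on the opposite strand and not used here, and without a stated strand setting reads from the 2 genes cannot be told apart.

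Mt3, also known as growth inhibitory factor, stood at 939.80, 819.26, 797.96 and 839.10 FPKM (double mutants, replicates 1 to 4) against 725.28, 723.46, 683.36 and 651.99 FPKM (wild type, replicates 1 to 4). The groups did not overlap. Its mean was 122% of wild type, with a log2 difference of 0.29 ± 0.05 (limma adjusted p = 0.000803).

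Mt1 stood at 578.83, 572.81, 490.29 and 527.85 FPKM (double mutants, replicates 1 to 4) against 472.83, 444.35, 496.18 and 482.15 FPKM (wild type, replicates 1 to 4). Double mutant replicate 3 lay below wild-type replicate 3, so the groups overlapped. The mean was 114% of wild type and the log2 difference 0.19 ± 0.05 (limma adjusted p = 0.00956, exact two-sided permutation p = 0.0571). Without letter A the change was 0.10 and did not pass (limma adjusted p = 0.102), nor did it without letter C (0.15, limma adjusted p = 0.0896) or on the means of the letters (0.19, limma adjusted p = 0.0519).

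The 3 metallothioneins summed to 1737 to 2151 FPKM in the double mutants and 1528 to 1580 FPKM in the wild type. Mt2 made up 27.5 ± 1.6% of that sum in the double mutants and 24.5 ± 1.3% in the wild type (SD, n = 4), and Mt1 made up 28.3 ± 1.1% and 30.6 ± 1.2%. On the log2 scale the level of Mt2 relative to Mt1 was -0.04 ± 0.11 in the double mutants and -0.32 ± 0.05 in the wild type, and the groups did not overlap. The difference of 0.28 had an exact two-sided permutation p of 0.0286, the smallest that 4 against 4 libraries allow, and 0.0571 after adjustment over the 4 ratios tested, which does not pass. Mt3 relative to Mt1 differed by 0.09 between the groups (exact permutation p = 0.2571, adjusted 0.2571), within the spread of 0.09 and 0.13 (SD).

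Slc30a10, the exporter that clears manganese from cells (chromosome 1, 185454848 to 185468762, plus strand), had the largest change of the 10 genes. It stood at 8.47, 8.05, 8.09 and 8.32 FPKM (double mutants, replicates 1 to 4) against 4.50, 4.82, 4.39 and 4.84 FPKM (wild type, replicates 1 to 4). The lowest double mutant library lay well above the highest wild-type library, and letters A and B overlapped. The mean was 177% of wild type, with a log2 difference of 0.77 ± 0.05 (limma adjusted p = 3.23e-07), which ranked 1275 by size among the 14349 genes. Its exons share 533 bases with Gm2061 on the opposite strand, which measured 0.52 to 1.19 FPKM in the double mutants and 0.74 to 0.91 FPKM in the wild type. The genes whose levels most resembled Slc30a10 over the 8 libraries were Plscr1, Tpcn1 and Tfcp2l1 (Pearson r = 0.999 each). In all, 1452 of 13367 genes had an r above 0.95 with it. This r was taken over both groups, so it includes the difference between them.

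Slc30a1 encodes the exporter of the plasma membrane and is, like Mt1 and Mt2, a known target of MTF1. Its level fell where those of Mt1 and Mt2 rose, and the part of MTF1 in these levels was not tested. Slc30a1 stood at 11.77, 11.22, 10.56 and 10.45 FPKM (double mutants, replicates 1 to 4) against 12.51, 12.82, 12.56 and 13.08 FPKM (wild type, replicates 1 to 4). The groups did not overlap, and the mean was 86.3% of wild type (log2 difference -0.21 ± 0.05, SE, limma adjusted p = 0.00242). Slc30a1 (chromosome 1, 191906767 to 191913247, plus strand) shares 468 exonic bases with 1700034H15Rik on the opposite strand, whose mean was 0.392 FPKM in the double mutants and 0.686 FPKM in the wild type. Of 3 tested zinc regulators and sensors 1 rose and 1 fell. Mtf1 itself measured 3.89 ± 0.23 and 4.58 ± 0.25 FPKM (SD, n = 4) and fell by 0.21 (limma adjusted p = 0.0104), a call lost without letter A or D and on the means of the letters (limma adjusted p = 0.0874, 0.0824 and 0.0637).

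Slc30a4, which loads zinc into vesicles and into milk (chromosome 2, 122681233 to 122702663, minus strand), fell as well. It stood at 8.47, 8.17, 9.35 and 8.70 FPKM (double mutants, replicates 1 to 4) against 10.09, 10.57, 10.67 and 10.82 FPKM (wild type, replicates 1 to 4). Every double mutant library lay below every wild-type library, at 82.3% of the wild-type mean (log2 difference -0.27 ± 0.05, SE, limma adjusted p = 0.000676).

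Slc30a3 (ZnT3), which loads zinc into the synaptic vesicles of glutamatergic neurons (chromosome 5, 31086106 to 31108237, minus strand), varied more between libraries than between groups. It stood at 1.43, 6.18, 4.61 and 4.72 FPKM (double mutants, replicates 1 to 4) against 5.34, 3.18, 3.08 and 5.84 FPKM (wild type, replicates 1 to 4). The lowest and the highest value of all 8 libraries both came from letter A. The means were 4.23 ± 2.00 and 4.36 ± 1.44 FPKM (SD, n = 4), with a log2 difference of -0.13 ± 0.35 (limma adjusted p = 0.767, exact permutation p = 0.9429), and without double mutant replicate 1 the value was 0.26. The spread was 47.3% of the mean in the double mutants and 33.0% in the wild type, where the other 9 genes stayed between 2.07% and 14.8%. It rested on an estimated 26 to 136 fragments per library. The vesicular glutamate transporter gene Slc17a7, a partner of Slc30a3 at such synapses, rose by 0.56 ± 0.03 (limma adjusted p = 1.53e-07). The ratio of Slc30a3 to Slc17a7 differed by -0.68 on the log2 scale between the groups, with overlap (exact permutation p = 0.1429, adjusted over the 4 ratios 0.1905), and by -0.31 without double mutant replicate 1.

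Among the importers, Slc39a12 (ZIP12), a zinc transporter of the brain (chromosome 2, 14388316 to 14494977, plus strand), rose. It stood at 18.70, 20.89, 20.96 and 20.71 FPKM (double mutants, replicates 1 to 4) against 14.63, 15.30, 15.48 and 16.16 FPKM (wild type, replicates 1 to 4). The groups did not overlap, and the mean was 132% of wild type (log2 difference 0.39 ± 0.05, SE, limma adjusted p = 3.83e-05). Set against the mean of the 11 astrocyte markers, all of which rose, Slc39a12 was at -1.99 ± 0.08 in the double mutants and -1.76 ± 0.11 in the wild type (SD, n = 4, log2 scale). The difference of -0.23 had an exact permutation p of 0.0286 without overlap and 0.0571 after adjustment over the 4 ratios, which does not pass. It was -0.13 without letter D and -0.32 without letter C.

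Slc39a10 (ZIP10), an importer of the plasma membrane (chromosome 1, 46807544 to 46892852, minus strand), stood at 18.67, 20.40, 19.36 and 19.59 FPKM (double mutants, replicates 1 to 4) against 21.49, 21.69, 20.87 and 22.07 FPKM (wild type, replicates 1 to 4). All double mutant libraries lay below the wild type, by a narrow margin. The log2 difference was -0.14 ± 0.04 (limma adjusted p = 0.00701), but upper quartile scaling gave -0.07 and quantile normalization -0.05, which did not pass (limma adjusted p = 0.121 and 0.222).

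Slc39a14 (ZIP14), which carries manganese, iron and zinc (chromosome 14, 70303469 to 70351425, minus strand), stood at 8.04, 7.72, 7.79 and 7.68 FPKM (double mutants, replicates 1 to 4) against 8.09, 8.14, 8.60 and 9.19 FPKM (wild type, replicates 1 to 4). The groups did not overlap but almost touched. The log2 difference of -0.11 ± 0.05 (limma adjusted p = 0.0618) did not pass. It passed without letter C (-0.18, limma adjusted p = 0.0265) and without wild-type replicate 1 (-0.14, limma adjusted p = 0.0471). Its mean was 91.8% of wild type, beside 177% for Slc30a10, the other manganese carrier among the 10 genes.

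**Figure D2:**
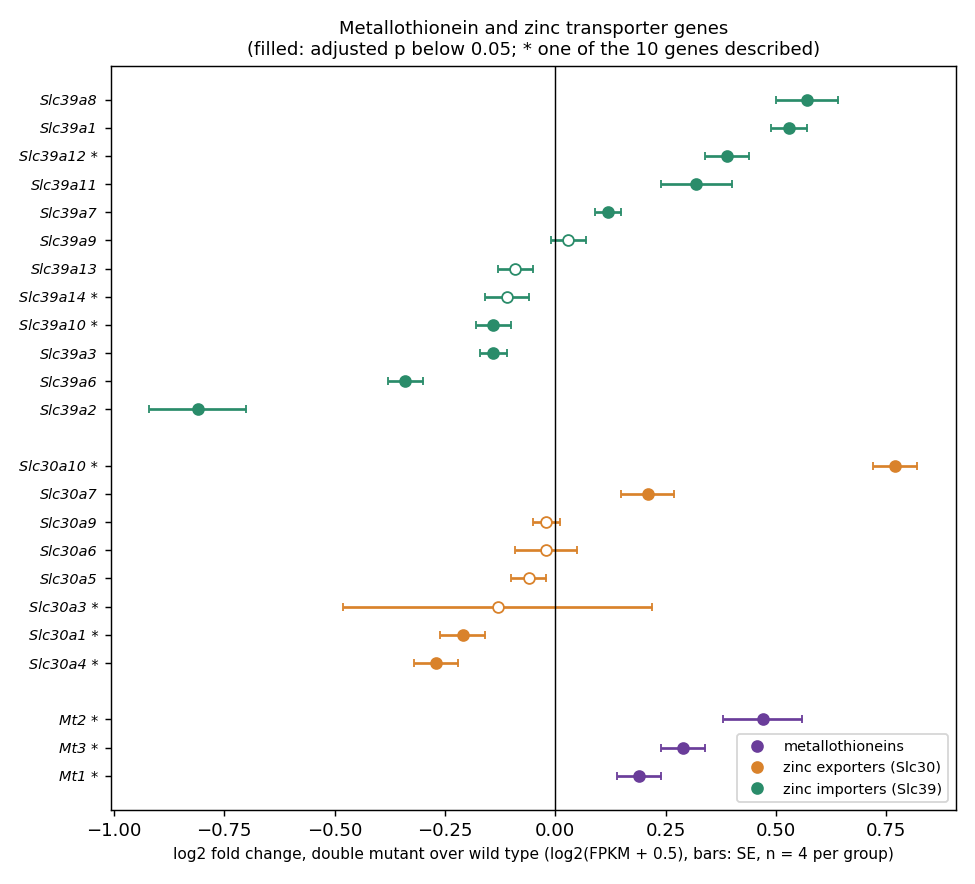
Log2 fold change (x axis, with SE, n = 4 per group) of the 23 tested metallothionein, Slc30 and Slc39 genes, filled where the adjusted p was below 0.05. All 3 metallothioneins lie above 0, while each transporter family spreads to both sides, from -0.27 to 0.77 for Slc30 and from -0.81 to 0.57 for Slc39.

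The wider transporter families moved in both directions. Of 10 Slc30 genes 8 were tested, of which 2 rose, 2 fell and 4 did not pass, with a median log2 difference of -0.04. Of 14 Slc39 genes 12 were tested, of which 5 rose, 4 fell and 3 did not pass, with a median of -0.03. Under upper quartile scaling these medians turned to 0.03 and 0.04, and 6 Slc39 genes rose and 2 fell. Without letter A or letter C, 3 Slc39 genes rose and 4 fell. Beyond the 10 genes, the importer genes Slc39a1 and Slc39a8 (ZIP8, which like ZIP14 also carries manganese) rose to 146% and 161% of wild type, by 0.53 ± 0.04 and 0.57 ± 0.07 (limma adjusted p = 5.32e-07 and 2.98e-05). Slc39a2 fell from 1.47 ± 0.11 to 0.634 ± 0.158 FPKM (SD, n = 4), by 0.81 ± 0.11 (limma adjusted p = 9.52e-05). The most abundant transporters outside the 10 genes were Slc30a9, with means of 45.6 (double mutant) and 46.1 FPKM (wild type), and the endoplasmic reticulum importer gene Slc39a7, with 46.2 and 42.6 FPKM. Slc30a9 did not pass (-0.02, limma adjusted p = 0.65) except under quantile normalization, with 0.08, and its sign turned positive there and under the other 3 scalings tried. Slc39a7 rose by 0.12 (limma adjusted p = 0.0123), a call lost on the means of the letters and without letter A or C (limma adjusted p = 0.0738, 0.0861 and 0.0689). The summed Slc30 genes came to 103.5 to 109.5 FPKM in the double mutants and 105.9 to 111.0 FPKM in the wild type, which overlap. The summed Slc39 genes came to 182.7 to 188.2 and 174.2 to 181.6 FPKM, which do not.

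Of 5 tested partners of zinc at glutamatergic synapses 2 rose and 3 fell (median -0.15), with the glutamate transporter gene Slc17a6 up by 0.90 and Ap3d1, a subunit of the AP-3 complex that sorts ZnT3, at -0.23. Genes of other metals rose more often than they fell, beside 28.8% of all genes higher and 36.5% lower. Of 10 copper handling genes, 8 rose and none fell (median 0.23), with the ferroxidase gene Cp, also called ceruloplasmin, up from 6.25 ± 0.22 to 12.8 ± 0.8 FPKM (SD, n = 4) and the copper chaperone gene Atox1 up by 0.41. Of 11 iron handling genes, 6 rose and 4 fell (median 0.17), with the ferrireductase gene Steap3 and the iron exporter gene Slc40a1 up by 0.85 and 0.57 and the ferritin gene Fth1 up by 0.17. Each of these named genes passed limma's test. Of the copper handling genes 7 rose and 1 fell with the replicate number as a block, without double mutant replicate 1 and without letter A. On the means of the letters 6 rose and 0 fell. Of the iron handling genes 5 rose and 4 fell without letter B, and 5 rose and 3 fell on the means of the letters. Upper quartile scaling gave 9 rises and 0 falls for copper and 7 rises and 3 falls for iron.

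Genes that respond to known inducers of Mt1 and Mt2 did not move one way. Of 9 tested glucocorticoid-induced genes none rose and 4 fell (median -0.16), with Cdkn1a at 14.3 ± 1.0 against 50.7 ± 6.1 FPKM in the wild type and Per1 at 29.6 ± 0.6 against 48.7 ± 4.2 FPKM (SD, n = 4). Sgk1 changed by -0.37 (limma adjusted p = 0.00411). The other 5 did not pass, among them Ddit4, the most abundant of the list, at 53.6 against 52.8 FPKM (0.02, limma adjusted p = 0.86). Ddit4 was at -0.11 without letter A and passed without letter B (0.14, limma adjusted p = 0.0251). Under quantile normalization 2 of these 9 rose and 4 fell, and 1 rose on the scaled count columns and without letter B or D. Both Cdkn1a and Per1 also respond to other signals. Of 8 genes of the IL-6 family and Stat3 response, 7 rose (median 0.50), with the receptor genes Osmr and Il6st up by 0.89 and 0.39 and Stat3 up by 0.23. Of this list 5 rose and 0 fell under quantile normalization and on the means of the letters. The same held without double mutant replicate 1 or 2 or wild-type replicate 3. Without letter A 5 of 7 tested rose (median 0.35), and without letter B 8 of 8 rose (median 0.74). Of 8 oxidative stress genes, 5 rose and 2 fell (median 0.48), with Slc7a11, Nfe2l2 and Nqo1 up by 1.06, 0.83 and 0.81. One of those that fell was Srxn1 (-0.12), a call lost under 9 alternatives (limma adjusted p from 0.0505 to 0.454), and none of the 8 fell under upper quartile scaling or quantile normalization or without letter A or D. The part of these signals in the metallothionein levels was not tested.

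**Figure D3:**
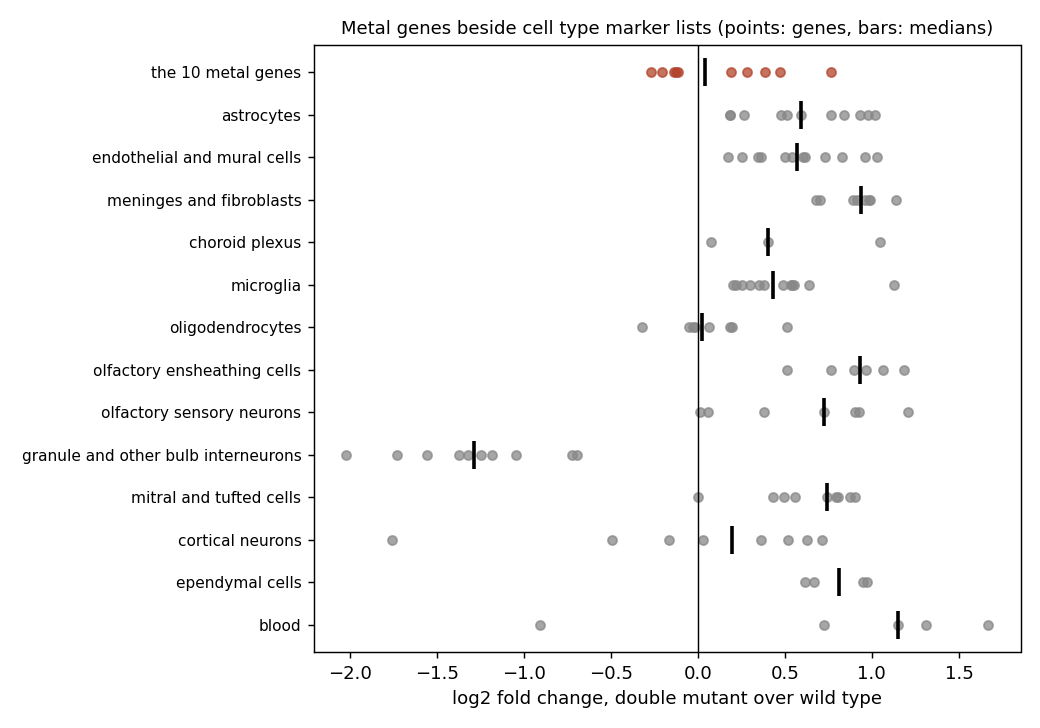
Log2 fold changes (x axis) of the 10 metallothionein and zinc transporter genes (red) and of the tested genes of each cell type marker list (grey), with medians as black bars. The 10 genes lie between -0.27 and 0.77, while the medians of the astrocyte, meningeal and ensheathing cell lists lie at 0.59, 0.94 and 0.93 and that of granule cells and other interneurons at -1.28.

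Markers of several cells that express metallothioneins rose in the same libraries. The 11 astrocyte markers summed to 1431 to 1476 FPKM in the double mutants and 959.1 to 1060 FPKM in the wild type, with a median log2 difference of 0.59. All 12 endothelial and mural markers rose (median 0.57, summed 383.6 to 426.1 against 224.0 to 232.4 FPKM). All 8 meningeal and fibroblast markers rose (median 0.94, 4121 to 4537 against 2397 to 2773 FPKM), as did all 6 olfactory ensheathing cell markers (median 0.93, 3259 to 3500 against 1681 to 1824 FPKM). Of 3 tested choroid plexus markers 1 rose, and the list summed to 4.52 to 5.67 FPKM in the double mutants and 2.19 to 3.35 FPKM in the wild type. Of 12 microglia markers 9 rose (median 0.43, 281.3 to 316.6 against 208.5 to 240.4 FPKM), and of 9 mitral and tufted cell markers 8 rose (median 0.74, 1109 to 1180 against 846.0 to 871.8 FPKM). Granule cell and other interneuron markers summed to 626.5 to 698.1 FPKM in the double mutants and 1520 to 1553 FPKM in the wild type. Of 8 oligodendrocyte markers 2 rose and 1 fell, with a median of 0.02. Without letter A 5 of them rose and 0 fell, and without letter B 1 rose and 4 fell. Blood had the largest median rise of the marker lists. Of its 5 tested markers 3 rose and 0 fell, and the list summed to 872.2 to 1148 against 268.4 to 430.1 FPKM. No marker of these lists was at 0 in all libraries. The rises of Mt1, Mt2, Mt3 and Slc39a12, at 0.19 to 0.47, were smaller than the median rise of the astrocyte list and that of Slc30a10 was larger, and the part of these cells in any of them was not tested.

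**Figure D4:**
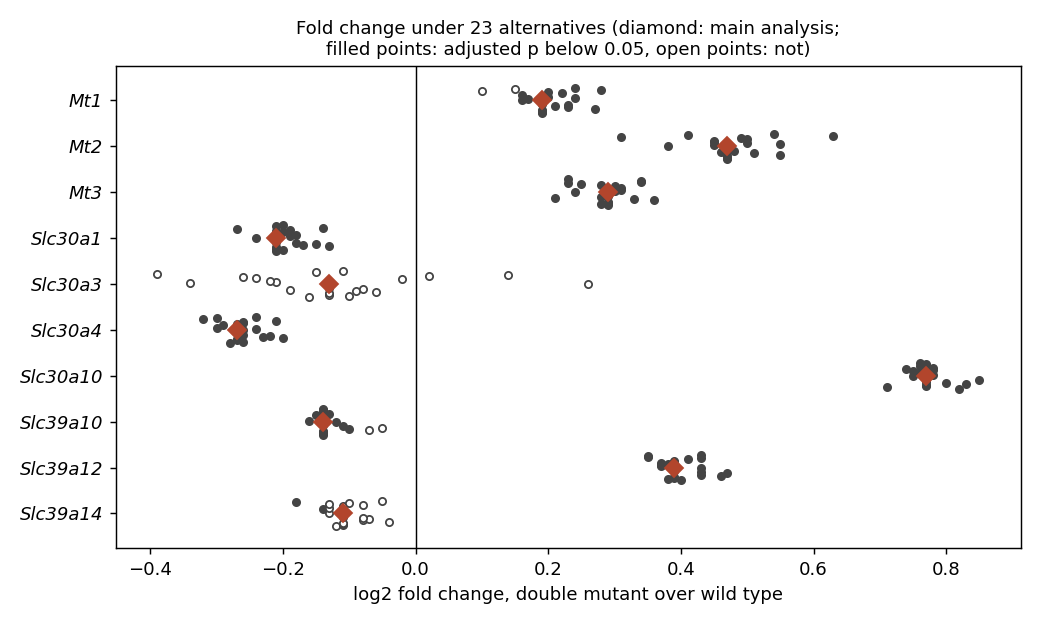
Log2 fold change (x axis) of each gene in the main analysis (diamond) and under 23 alternatives of scaling, filter, pseudocount, block and left-out libraries, filled where the adjusted p was below 0.05. Mt2, Mt3, Slc30a1, Slc30a4, Slc30a10 and Slc39a12 stay filled on 1 side of 0 throughout, and Slc30a3 crosses 0.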

How the data were processed

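RNA of dissected olfactory bulbs was sequenced in 8 libraries. The authors deposited FPKM values per gene, and beside them a deposited count column that holds a scaled signal. Per the submitters' processing notes, the tools were TopHat and Cufflinks 2.1.1, with GRCm38.p4 as genome build. The sources used here give no annotation, strand setting or filter. Of the scaled values, 97.9% to 98.4% per library were whole multiples, within 0.02, of 1 step. As some values were not whole, count models were left out, and the signal served for depth and as an alternative.

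Values were analysed as log2(FPKM + 0.5), for genes averaging 0.5 FPKM or more, with limma 3.58.1 (moderated variances with a trend, group as the only term) in R 4.3.3. Two-sided p-values were adjusted by Benjamini-Hochberg over 14349 genes. The code was tested on simulated data. Single genes and ratios were tested with exact two-sided permutation over 70 assignments, which treat libraries as exchangeable. For 8 of the 10 genes p was 0.0286, the smallest possible, and Mt1 and Slc30a3 gave 0.0571 and 0.9429. Python 3.11.15 was used otherwise. Same-numbered libraries did not deviate together (correlations -0.052 to 0.005). The genes and lists were chosen with earlier results of these data known. Beyond the 10 genes the text names family genes called with a change of at least 0.5 or of the highest level, and from other lists genes of smallest p or highest level.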

Additional observations from a re-analysis of the deposited data

Results flagged for a closer look

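Slc39a12 in the double mutants had 1 library far from the other 3. Replicate 1 measured 18.70 FPKM against 20.71 to 20.96 FPKM in replicates 2 to 4, a gap of 0.891 of the range of the group, above the 95% critical value of Dixon's test for 4 values. It was the only such value among 28 groups of values checked, where chance flags about 1 in 20. Replicate 1 still lay above the highest wild-type library, at 16.16 FPKM.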

How the results depend on the processing

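The calls of Mt2, Mt3, Slc30a1, Slc30a4, Slc30a10 and Slc39a12 held with the same sign under all 23 alternatives, at changes of 0.31 to 0.63, 0.21 to 0.36, -0.27 to -0.13, -0.32 to -0.20, 0.71 to 0.85 and 0.35 to 0.47. Leaving out 1 library gave 5 genes higher and 3 to 4 lower, and other alternatives gave 4 to 5 higher and 2 to 4 lower. Slc30a3 turned to 0.26 without double mutant replicate 1 (from -0.34 to 0.26 over the left-out libraries), to 0.02 without wild-type replicate 4 and to 0.14 without letter A. Under upper quartile scaling its difference in mean FPKM also changed sign (exact permutation p = 0.9429), and the exact permutation p became 0.0571 for Slc30a1, 0.0857 for Slc39a10, 0.4 for Slc39a14 and 0.0286 for Mt1. Mt1, Slc39a10 and Slc39a14 crossed the threshold as given above. The number of genes called in all ran from 7693 to 9669. With the replicate number as a block (replicate block), 9189 genes were called, 4045 higher and 5144 lower, and no call among the 10 genes changed. Same-numbered libraries share only a number, and not every library correlated best with its own number. Slc30a3 rested on an estimated 26 to 136 fragments per library, while the other 9 genes had at least 407. The part of depth in the spread of Slc30a3 was not tested.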
